A study of Mus musculus with 22 samples.

Results

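Interleukin 25 (Il25) and its receptor chain Il17rb, the type 2 cytokine receptor chains Il4ra and Il13ra1, the alarmin Tslp, the leukocyte phosphatase Ptprc and the GTPase Rac2 were followed through 6 cell types of the mouse colon crypt. These 7 genes, named together for the immune type of tuft cell called tuft-2, were taken by symbol from the 24421 genes counted. Each had an entry in every library, although Il25, Tslp, Ptprc and Rac2 had no reads in some libraries. In tuft cells Il17rb, Il13ra1, Ptprc, Rac2 and Il25 had their highest mean levels. Il4ra had like means in tuft cells and secretory progenitors, and Tslp had its highest mean in enterocytes.

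Tuft cells are rare chemosensory cells of the gut epithelium and its main source of Il25, which acts through a receptor of Il17rb and Il17ra on innate lymphoid cells. Those cells release Il13, which binds epithelial cells through Il4ra paired with Il13ra1 and signals through Jak kinases to the transcription factor Stat6, closing a circuit that raises the number of tuft and goblet cells in the small intestine. Ptprc encodes Cd45, the tyrosine phosphatase used to mark leukocytes, and Rac2 encodes a small GTPase known mainly from blood cells.

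RNA was sequenced from cells of untreated wild type C57BL/6N male mice aged 5 to 7 weeks, in 22 libraries: 5 of tuft cells, 4 of secretory progenitors with deep crypt secretory and goblet cells (SecPDG), 2 of enteroendocrine cells (EECs), 5 of enterocytes, 3 of absorptive progenitors (AbsPro) and 3 of stem cells. All cells were live, Epcam+, Cd31- and Cd45- by flow sorting. By the labels, stem cells had the highest Cd44 with low Cd24 and no Ckit, AbsPro medium to high Cd44 with low Cd24 and no Ckit, SecPDG high Cd44 with medium Cd24 and Ckit, tuft cells high Cd24 with Ckit, enterocytes low or no Cd44 without Cd24, and EECs low or no Cd44 with Cd24. The text of the study differs in part, giving SecPDG medium Cd44 and Kit protein in tuft cells alone. Replicates came from independent mice and sorts, and each library outside AbsPro and stem cells was made from more than 1 mouse, so the spread between libraries is a spread between pools. The libraries measure bulk RNA, in which fewer cells of a type and less RNA per cell cannot be told apart, and tuft-2 cells cannot be separated from other tuft cells in them.

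Counts on genes ranged from 4122122 in an EEC library to 22462518 in a stem cell library, and levels are given as normalized counts, the counts scaled by TMM library factors. Reads outside genes made up 41.3 to 89.9% of each library. Genes of the olfactory and vomeronasal receptor and keratin-associated protein families (1171 genes), which colon epithelium is not known to transcribe, took 125 to 1038 CPM of the tuft libraries, 399 to 5038 of EECs, 563 to 2774 of enterocytes and 7.21 to 104 of the other types. Per kilobase of transcript, these counts served as an estimate of background for each of the 7 genes. The tuft label held in its marker genes: 11 of 11 counted tuft markers (Pou2f3, Trpm5, Dclk1, Avil and others) were higher in tuft cells than in each of the other types but EECs, where 9 of 11 were (in DESeq2's test 10 of 11 against enterocytes and 3 of 11 against EECs). By edgeR, 7.83% of all genes were higher than in stem cells, 5.23% than in AbsPro and 3.01% than in SecPDG. Against enterocytes 5.79% were, and against EECs 4.56%. The summed level of the 11 tuft markers was 27899 to 75801 in tuft cells, 5266 to 9372 in EECs and 199 to 1557 in the other types. Enterocyte markers did not set enterocytes apart, with sums of 35635 to 55413 there, 58527 to 89125 in AbsPro and 4044 to 87982 in EECs. Enteroendocrine markers summed to 596820 to 1713900 in EECs and 1397 to 27026 in tuft cells. Kit reached 9354 ± 1624 (SD, n = 5) and Cd24a 35250 ± 7267 in tuft cells, the 2 genes of that gate. Kit did not separate tuft cells, at 6619 to 10787, from SecPDG, at 6069 to 9232. Cd24a did, at 23553 to 42827 in tuft cells and 12494 to 15442 in SecPDG. Pecam1, the gene of Cd31, averaged 676 in EECs, 139 in enterocytes, 60.5 in tuft cells, 30.2 in AbsPro, 6.74 in SecPDG and 0.898 in stem cells.

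Promoter sequence from RefSeq (GRCm38.p6) was held for 4 of the 7 genes, the 3 receptor chains and Ptprc, and the 250 bases before the transcription start are shown, 5′ to 3′ on the strand of the gene, because the genes fall into a pair with a shared expression pattern (Il4ra and Il13ra1) and others without it. The windows are chrX:36111858-36112107 (plus strand) for Il13ra1, chr14:30008897-30009146 (minus) for Il17rb, chr7:125552021-125552270 (plus) for Il4ra and chr1:138175306-138175555 (minus) for the upstream of 2 listed starts of Ptprc. These starts are those of RefSeq. The GENCODE gene spans begin farther upstream for Il4ra, at 125552120, and for Ptprc, at 138175708. The Ptprc window therefore lies wholly within its GENCODE span, and the Il4ra window in part. Capitals mark matches, on either strand, to the motifs spelled out after the sequences.
Il13ra1: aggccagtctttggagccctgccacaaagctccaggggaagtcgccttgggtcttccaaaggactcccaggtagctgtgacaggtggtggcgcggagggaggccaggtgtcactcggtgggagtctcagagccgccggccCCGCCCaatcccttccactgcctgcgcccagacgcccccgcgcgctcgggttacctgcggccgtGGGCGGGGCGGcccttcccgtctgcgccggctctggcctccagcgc
Il17rb: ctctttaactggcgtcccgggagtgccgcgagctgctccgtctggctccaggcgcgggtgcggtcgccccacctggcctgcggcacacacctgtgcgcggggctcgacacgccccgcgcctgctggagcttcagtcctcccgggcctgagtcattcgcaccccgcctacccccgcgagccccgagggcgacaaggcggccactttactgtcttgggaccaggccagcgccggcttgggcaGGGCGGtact
Il4ra: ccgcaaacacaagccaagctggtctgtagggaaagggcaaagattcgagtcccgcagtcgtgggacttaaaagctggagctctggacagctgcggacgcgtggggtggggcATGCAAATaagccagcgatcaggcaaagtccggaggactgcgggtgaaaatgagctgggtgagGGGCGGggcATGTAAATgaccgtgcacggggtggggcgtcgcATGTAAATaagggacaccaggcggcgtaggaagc
Ptprc: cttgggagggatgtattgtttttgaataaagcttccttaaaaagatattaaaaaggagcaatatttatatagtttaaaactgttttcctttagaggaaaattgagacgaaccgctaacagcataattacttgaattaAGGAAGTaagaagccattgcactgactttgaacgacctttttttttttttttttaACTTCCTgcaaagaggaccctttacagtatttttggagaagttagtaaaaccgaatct

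The receptor promoters were rich in G and C, at 70.8% for Il13ra1, 72% for Il17rb and 59.6% for Il4ra, and that of Ptprc was not, at 31.6%, with a median of 52.4% over 32851 mouse promoters of the same length. The octamer ATGCAAAT, bound by POU factors, is of interest here because the tuft cell regulator Pou2f3 belongs to that family. It stood in the Il4ra window alone of these 4, 139 to 132 bases before the start, and in 1.6% of all promoters. The variant ATGTAAAT, looked for after the sequence had been read, stood there at 67 to 60 and again at 34 to 27 bases before the start, and in 1.22% of all promoters. The GC box GGGCGG, present in 32.7% of promoters, was found in all 3 receptor windows, with 2 of the 3 matches in Il13ra1 sharing 1 base. The Ets core AGGAAGT, in 7.69% of promoters, was found in Ptprc at 113 to 107 and, on the other strand, at 58 to 52 bases before the start. The spacing TTCNNNNGAA of Stat6 sites, in 5.85% of promoters, had no match in these windows. The octamer and variant matches of Il4ra and the Ets matches of Ptprc lie within the GENCODE spans of these genes. A match describes letters only.

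Genes were tested in 1 fit of all libraries with edgeR's quasi-likelihood F test, and a call required an adjusted p (Benjamini-Hochberg) below 0.01 together with an average of 50 or more normalized counts across the 22 libraries. All 7 genes entered the test. Il25 and Tslp, with means of 10.1 and 10.4, lie under that minimum and could not be called at any p. Ptprc and Rac2 were under 50 in stem cells, AbsPro and SecPDG and reached the minimum through the other types. The comparisons of tuft cells with the other types share the 5 tuft libraries. Shares of all genes are taken over every gene tested, those under the minimum included. Among genes that could be called the shares would be higher. Counts of list members at an unadjusted p under 0.05, and those called in DESeq2's test, are given without the matching share of all genes. They describe the lists only.

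**Figure D1:**
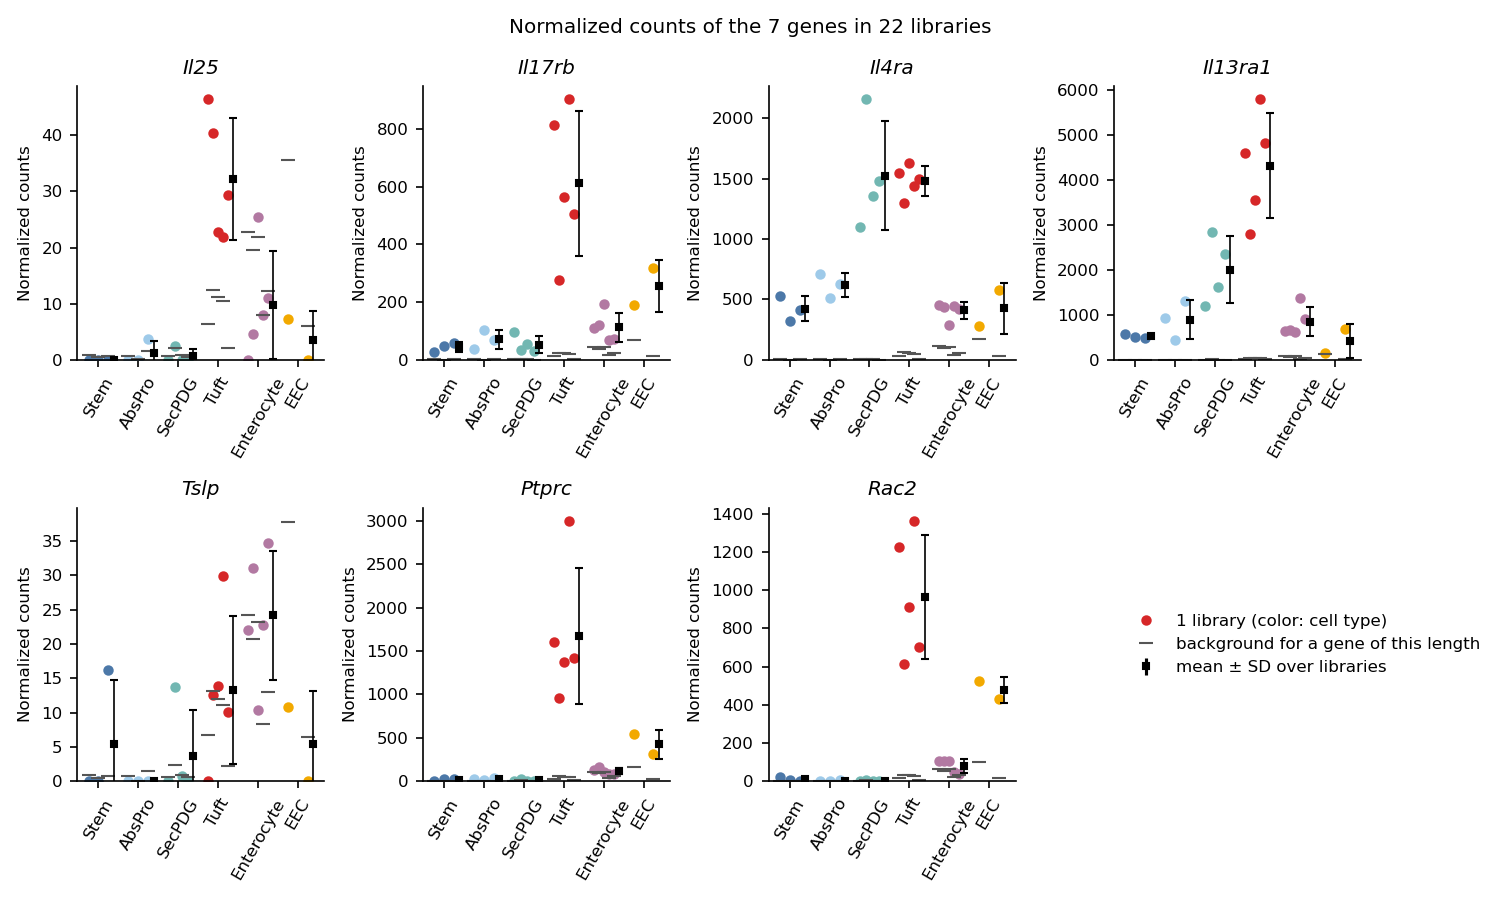
Normalized counts of the 7 genes by library and cell type, with 1 panel a gene, points for libraries, gray dashes for the background estimate of each library, and a square with a bar for the mean ± SD, the bar ending at 0 where it would pass below. The tuft libraries stand above those of every other type for Ptprc, from 958 to 3003, and for Rac2, from 616 to 1364, whereas for Il4ra they lie among those of SecPDG.

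Against stem cells, 5 of the 7 genes were called higher in tuft cells, where 7.83% of all tested genes were. Against AbsPro 5 were called (5.23% of all genes) and against SecPDG 3 (3.01%). Against enterocytes 5 were called (5.79%) and against EECs 3 (4.56%). None of the 7 was called lower in tuft cells by edgeR or DESeq2, and none was lower at an unadjusted p under 0.05. Such a call was made for 4.23% of all genes against stem cells, 2.89% against AbsPro, 0.347% against SecPDG, 2.65% against enterocytes and 4.73% against EECs. The median log2 fold change of the 7 genes was 3.77 against stem cells, 4.73 against AbsPro (4.03 with Tslp, at 0 in AbsPro, set at its lower bound), 3.49 against SecPDG, 2.35 against enterocytes and 1.75 against EECs. Over all genes tested the medians ran from -0.32 to 0.83.

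**Figure D2:**
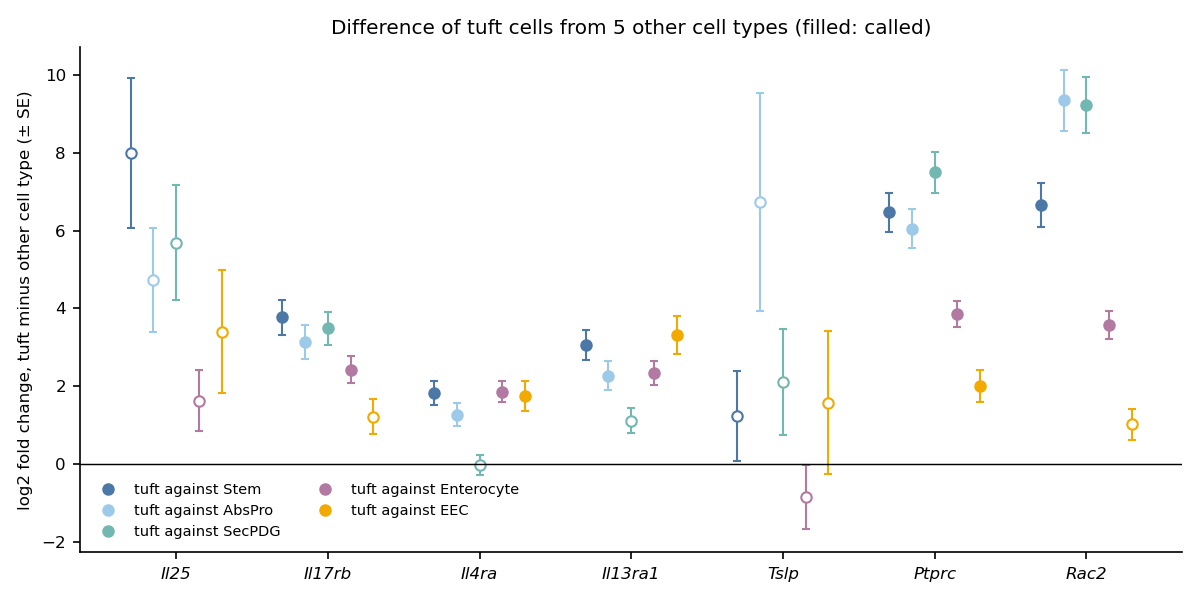
Log2 fold changes of the 7 genes in tuft cells against each other cell type, with bars of 1 standard error and filled points for called genes. Ptprc and Rac2 lie above 6 against stem cells, AbsPro and SecPDG, and Il4ra lies at -0.04 against SecPDG.

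Among the ligands, Il25 was sparse. The 5 tuft libraries held 46.4, 40.4, 22.8, 21.9 and 29.3 normalized counts, a mean of 32.1 ± 10.9 (SD, n = 5) from 18 to 38 reads each. The 3 stem libraries held none, AbsPro held 0, 0 and 3.75, and SecPDG 0, 2.49, 0 and 0. Enterocytes held 0, 4.59, 25.4, 7.98 and 11.1, and EECs 7.23 and 0. Every tuft library was therefore above every library of stem cells, AbsPro, SecPDG and EECs, and enterocyte library 3 alone reached into the tuft range.

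Against stem cells, whose 0 counts are set at a floor of 3 over the group, Il25 was at least 46.1-fold higher in tuft cells. Against the 2 counts of SecPDG the ratio was 64.7, with a 95% counting interval of 17.6 to 539 that covers counting error only, and the edgeR adjusted p was 0.00824. The log2 fold change was 4.73 ± 1.33 (SE) against AbsPro (edgeR adjusted p = 0.00874). Against enterocytes it was 1.63 ± 0.78 (adjusted p = 0.148) and against EECs 3.40 ± 1.58 (adjusted p = 0.118), so a difference from these types was not detectable at this depth. With the background taken off, the value against enterocytes was 4.47 (edgeR adjusted p = 0.0771). The background estimate came to 26.5% of the mean of Il25 in tuft cells, 577% in EECs and 172% in enterocytes, so the enterocyte and EEC counts lie at or under it. The fitted sizes rest on single libraries: against EECs the value was 2.12 without EEC replicate 2, which held none, and 8.03 without EEC replicate 1, which held all counts there. Against AbsPro it was 4.03 without AbsPro replicate 1 (edgeR adjusted p = 0.0681) and 7.998 without AbsPro replicate 3, which held all counts there (0.0197). Such values against a group at 0 depend on the fit and are no bound.

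Tslp, which in epithelia acts on dendritic cells and innate lymphoid cells through Crlf2 and Il7r, did not follow Il25. Tuft libraries held 0, 12.6, 13.9, 29.9 and 10.04 normalized counts and enterocytes 21.95, 31.0, 10.4, 22.8 and 34.6. Counts elsewhere were 16.2 in stem library 3, 13.7 and 0.842 in SecPDG libraries 2 and 3, 10.8 in EEC library 1 and 0 in all others. The means were 24.2 ± 9.38 (n = 5) in enterocytes and 13.3 ± 10.8 (n = 5) in tuft cells, and these groups overlapped.

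The log2 fold change of Tslp in tuft cells was -0.85 ± 0.83 against enterocytes (edgeR adjusted p = 0.476), and no other comparison of tuft cells passed the test, with adjusted p from 0.069 to 0.568. The background estimate was 67.8% of its mean in tuft cells and 73.9% in enterocytes. Tslp (18:32815383-32819797, plus strand) lies within the noncoding gene 4930455D15Rik on the other strand over all of its 4415 bases, and because reads were counted without strand the RNAs cannot be told apart. Whether Tslp is higher in either type is undecided by these values.

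Il17rb, the chain that binds Il25, was high in all tuft libraries, at 813, 275, 565, 904 and 504 normalized counts. EECs followed with 192 and 319, and enterocytes with 110, 119, 193, 68.4 and 72. Levels were lower in AbsPro (38.1, 103 and 70.3), SecPDG (95.5, 32.3, 53.9 and 30.4) and stem cells (26.0, 46.7 and 59.3). Tuft library 2, the lowest of its group, lay below EEC library 2, and the tuft range was otherwise clear of the other types.

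The mean of Il17rb in tuft cells was 612 ± 251 (SD, n = 5), and its log2 fold change was 3.77 ± 0.45 (SE) against stem cells (edgeR adjusted p = 3.03e-09), 3.14 ± 0.43 against AbsPro (1.5e-07), 3.49 ± 0.42 against SecPDG (7.08e-09) and 2.43 ± 0.36 against enterocytes (3.87e-07). Against EECs it was 1.22 ± 0.45 and was not called (adjusted p = 0.0415). No neighbours in the order tuft, EEC, enterocyte, AbsPro, SecPDG and stem differed past the threshold, although EECs were called above stem cells (2.55 ± 0.60, edgeR adjusted p = 0.000481), as were 10.8% of all genes. Il17rb (14:29996135-30008896, minus strand) shares 10220 bases of its span with Actr8 on the other strand.

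Il17ra, the other chain of the Il25 receptor, had like means in all cell types, with 364 ± 42.5 (n = 5) normalized counts in tuft cells and 323 to 407 as the means of the others. Its log2 fold changes in tuft cells lay between -0.16 and 0.18 and none was called. Per kilobase of transcript, the ratio of Il17rb to Il17ra counts within a library was 3.07 to 9.06 in tuft cells, 2.11 and 3.00 in EECs, and at most 2.67 elsewhere. EEC library 2 thus lay just under the lowest tuft library, and all others were farther below.

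Il4ra, the chain shared by the receptors for Il4 and Il13, was high in tuft cells and in SecPDG alike. Tuft libraries held 1548, 1299, 1628, 1439 and 1494 normalized counts and SecPDG 1100, 2160, 1355 and 1485. The other types were lower, at 709, 512 and 628 in AbsPro, 531, 324 and 411 in stem cells, 451, 438, 288, 445 and 422 in enterocytes, and 278 and 576 in EECs. No library of these 4 types reached the lowest tuft or SecPDG library.

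The means of Il4ra were 1525 ± 452 (SD, n = 4) in SecPDG and 1481 ± 124 (n = 5) in tuft cells, a log2 difference, tuft minus SecPDG, of -0.04 ± 0.26 (edgeR adjusted p = 0.93). Its sign depended on the scaling: it was 0.18 with DESeq2's size factors and 0.30 with library totals. Tuft cells were higher than stem cells by 1.82 ± 0.31 (edgeR adjusted p = 8.69e-06), AbsPro by 1.26 ± 0.30 (0.00166), enterocytes by 1.86 ± 0.27 (2.78e-07) and EECs by 1.75 ± 0.38 (0.000566; 2.41 without EEC replicate 2). SecPDG was higher than stem cells by 1.85 ± 0.31 (edgeR adjusted p = 1.67e-05), a call made for 3.38% of all genes. Below AbsPro, the order of EEC, stem and enterocyte held no difference past the threshold. Without AbsPro replicate 2 the tuft difference from AbsPro was 1.15 and was not called (adjusted p = 0.0238).

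Il13ra1, the partner of Il4ra in the epithelial receptor for Il13, had the highest level per kilobase of the 7 genes in tuft cells, 1162 normalized counts, against 282 to 329 for Il4ra, Il17rb, Rac2 and Ptprc, 30.2 for Il25 and 11.8 for Tslp. Tuft libraries held 4597, 2804, 3554, 5792 and 4822 normalized counts and SecPDG 1187, 2841, 1606 and 2360. AbsPro held 925, 450 and 1310, enterocytes 650, 664, 627, 1374 and 910, stem cells 567, 507 and 486, and EECs 141 and 679. SecPDG library 2 passed the lowest tuft library by a narrow margin, and the highest library of the other 4 types held 1374.

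The mean of Il13ra1 in tuft cells was 4314 ± 1160 (SD, n = 5). It was higher than in stem cells by 3.05 ± 0.39 on the log2 scale (edgeR adjusted p = 1.36e-08), AbsPro by 2.28 ± 0.37 (5.23e-06), enterocytes by 2.35 ± 0.31 (3.21e-08) and EECs by 3.31 ± 0.49 (7.1e-07). Without EEC replicate 2 the last value was 4.94. Against SecPDG, with a mean of 1999 ± 742 (n = 4), the difference was 1.12 ± 0.31 and missed the threshold (adjusted p = 0.015). It was called under 7 other ways of fitting, including DESeq2's test (1.34, adjusted p = 5.28e-05). SecPDG was called above stem cells by 1.94 ± 0.38 (edgeR adjusted p = 0.000229), and its step over AbsPro, 1.16 ± 0.37, was not called (adjusted p = 0.0465).

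**Figure D3:**
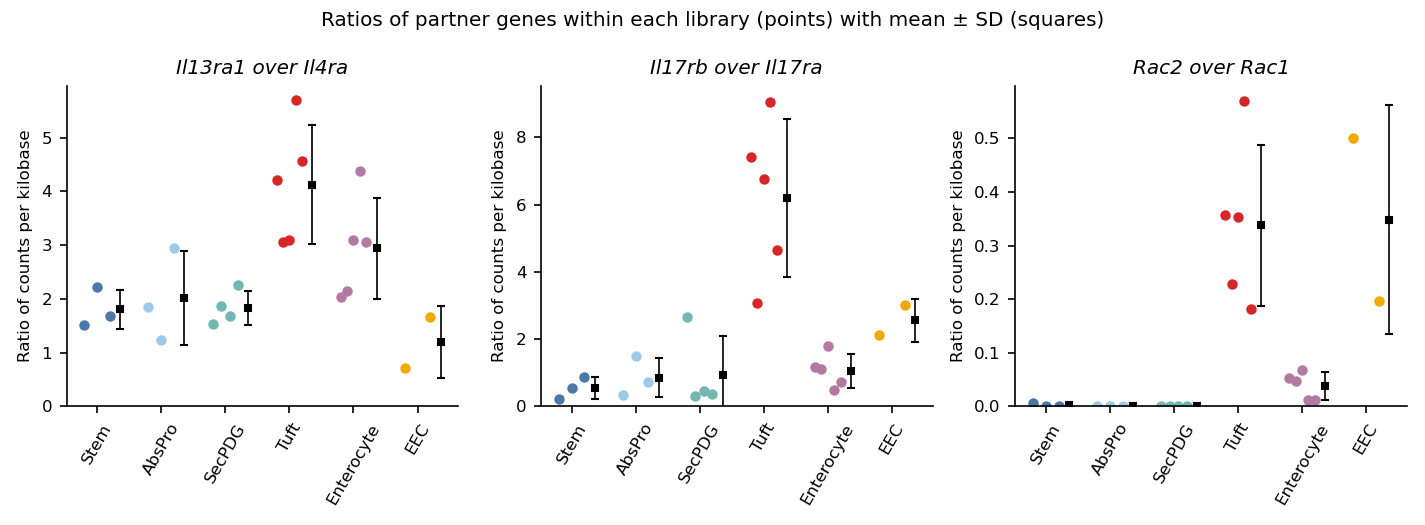
Ratios within each library, per kilobase of transcript, of Il13ra1 to Il4ra, Il17rb to Il17ra and Rac2 to Rac1, by cell type with 1 point a library and squares with bars for the mean ± SD. The tuft libraries span 3.06 to 5.70 for Il13ra1 to Il4ra, above the 4 SecPDG libraries at 1.53 to 2.25.

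Il4ra and Il13ra1 followed each other across the libraries, with a Pearson r of 0.88 over the 22 libraries on log2(normalized count + 1), and their ratio still varied. Per kilobase it was 4.21, 3.06, 3.09, 5.70 and 4.57 in the tuft libraries, a mean of 4.12 ± 1.11. The mean ratio was 1.83 ± 0.31 (n = 4) in SecPDG, 1.80 ± 0.37 (n = 3) in stem cells, 2.01 ± 0.87 (n = 3) in AbsPro and 2.94 ± 0.94 (n = 5) in enterocytes, and the EEC libraries had 0.717 and 1.67. Tuft cells and SecPDG, which did not differ in Il4ra, did not overlap in this ratio, whereas enterocytes and tuft cells did. The correlation and ratios are descriptions over libraries that share cell type and background.

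Summed over 4 goblet cell markers, mean levels were highest in the 2 cell types with the most Il4ra, but the single markers did not all follow that order. Between tuft cells and enterocytes their median log2 fold change was -0.40, and edgeR called 0 higher and 0 lower (beside 5.79 and 2.65% of all genes). DESeq2's test called Muc2 higher in tuft cells (2.25, adjusted p = 4.29e-07) and Tff3 lower (-1.31, adjusted p = 0.00599). Their summed level was 649780 to 1052200 in tuft cells and 629670 to 2922600 in SecPDG. It was 222350 to 655640 in enterocytes, 75631 to 223610 in AbsPro, 33594 to 56233 in EECs and 16715 to 29222 in stem cells, with none of the 4 markers at 0 in any type. Enterocytes, with goblet sums above those of stem cells and nearly all above those of AbsPro, had an Il4ra mean of 409 against 422 in stem cells and 616 in AbsPro. Whether the markers have a part in the receptor levels was not tested.

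Ptprc was called higher in tuft cells than in each other cell type. Tuft libraries held 1601, 958, 1376, 3003 and 1416 normalized counts, EECs 544 and 311, and enterocytes 133, 168, 102, 89.0 and 83.1. Stem cells held 0, 21.8 and 32.3, AbsPro 24.0, 19.5 and 32.8, and SecPDG 0, 28.6, 5.05 and 7.83. Tuft, EEC and enterocyte libraries formed ranges that did not overlap with each other or with the remaining types. Cells bearing its product Cd45 on the surface were gated out of every sort.

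The mean of Ptprc in tuft cells was 1671 ± 781 (SD, n = 5). It was higher than in stem cells by 6.47 ± 0.51 on the log2 scale (edgeR adjusted p = 5.09e-16), AbsPro by 6.05 ± 0.50 (4.84e-15), SecPDG by 7.5 ± 0.54 (2.11e-17), enterocytes by 3.86 ± 0.34 (3.42e-14) and EECs by 2.00 ± 0.42 (0.000237). Leaving out Stem replicate 3 moved the value against stem cells to 7.07, and leaving out SecPDG replicate 2 moved that against SecPDG to 8.39. The call against EECs was lost without EEC replicate 2 (1.62, adjusted p = 0.0109) and in DESeq2's test (1.27, adjusted p = 0.218).

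Farther down the order of Ptprc, EECs were called above enterocytes (1.85 ± 0.48, edgeR adjusted p = 0.00567), as were 3.44% of all genes, and enterocytes above AbsPro (2.19 ± 0.65, adjusted p = 0.00516), as were 8.21%. The background estimate was 2.43% of the mean in tuft cells, 23.3% in EECs and 70.0% in enterocytes. With the background taken off, the step from enterocytes to AbsPro was 1.28 and no longer called (edgeR adjusted p = 0.281), and that from EECs to enterocytes was 3.12. With the 4 libraries of highest background left out, the fold changes were close to those above, 1.80 for EECs over enterocytes (adjusted p = 0.0909) and 1.86 for enterocytes over AbsPro (0.101), and neither was called with fewer libraries. In DESeq2's test the step from EECs to enterocytes was 2.17 and not called (adjusted p = 0.0344). The span of Ptprc (1:138062861-138175708, minus strand) holds the unconfirmed transcript A130071D04Rik over 5864 bases of the same strand.

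Rac2 was highest in tuft cells. Tuft libraries held 1224, 616, 914, 1364 and 703 normalized counts, EECs 524 and 431, and enterocytes 104, 106, 106, 49.0 and 36. Stem cells held 23.7, 5.12 and 1.35, and AbsPro library 3 and SecPDG library 2 were the only libraries of their types with any, at 4.69 and 7.46. Tuft cells, EECs and enterocytes again did not overlap.

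The mean of Rac2 in tuft cells was 964 ± 324 (SD, n = 5). Its log2 fold change was 6.65 ± 0.56 against stem cells (edgeR adjusted p = 4.39e-14), 9.35 ± 0.78 against AbsPro (2.58e-14), 9.23 ± 0.72 against SecPDG (1.89e-15) and 3.58 ± 0.36 against enterocytes (8.48e-12). Against EECs it was 1.02 ± 0.39 and was not called (adjusted p = 0.0536). The sizes against stem cells, AbsPro and SecPDG each rest on few reads: they were 8.14 without Stem replicate 1, 12.9 without AbsPro replicate 3 (8.64 without replicate 1) and 12.8 without SecPDG replicate 2, and the calls held.

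EECs were called above enterocytes in Rac2 (2.55 ± 0.47, edgeR adjusted p = 7.35e-05; in DESeq2's test 0.0172, not called). Enterocytes were called above stem cells in Rac2 (3.07 ± 0.79, edgeR adjusted p = 0.00125) and in Ptprc (2.61 ± 0.66, adjusted p = 0.000924), as were 10.7% of all genes. The background estimate of Rac2 was 2.52% of the mean in tuft cells, 12.5% in EECs and 60.1% in enterocytes. With the background taken off, these 2 differences were 2.59 for Rac2 (edgeR adjusted p = 0.0542) and 1.63 for Ptprc (0.144). With the 4 libraries of highest background left out they were 2.28 (edgeR adjusted p = 0.101) and 2.30 (0.0311), so both stayed positive and neither was called.

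EECs were also called above stem cells in Ptprc (4.46 ± 0.64, edgeR adjusted p = 1.13e-07) and Rac2 (5.63 ± 0.69, adjusted p = 2.73e-09), and these calls held with the background taken off. EEC libraries also carried tuft markers, whose summed level there was 14.6% of the tuft mean, against 0.445 to 2.34% in the other types. By the same measure EECs held 49.5% of the tuft level of Rac2, 41.7% of Il17rb, 25.6% of Ptprc, 28.8% of Il4ra and 9.51% of Il13ra1. The part of the tuft markers in the EEC levels was not tested.

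Rac1, the Rac of most cell types, was abundant throughout, with 4101 ± 860 (n = 5) normalized counts in tuft cells, and edgeR called it in no comparison of tuft cells, whereas DESeq2's test called it lower than in SecPDG (-0.50, adjusted p = 0.00074). The ratio of Rac2 to Rac1 per kilobase was 0.181 to 0.569 in tuft libraries and 0.197 and 0.5 in EECs. It was 0.0111 to 0.0682 in enterocytes and at most 0.00709 in stem cells, AbsPro and SecPDG.

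**Figure D4:**
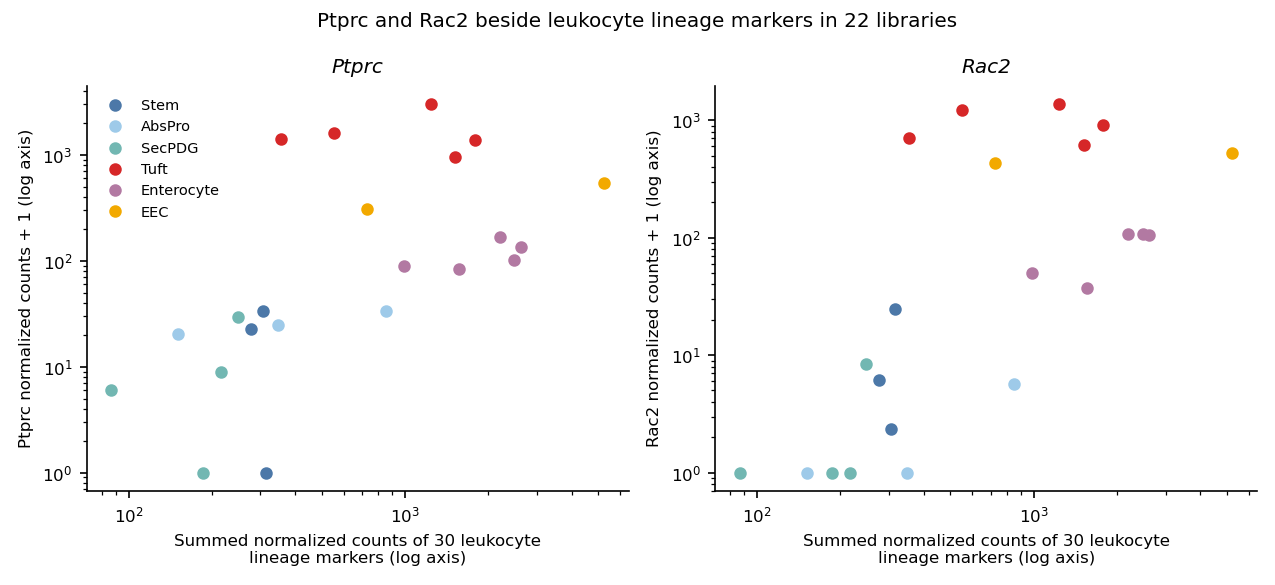
Normalized counts plus 1 of Ptprc (left) and Rac2 (right) on the vertical axis against the summed normalized counts of 30 leukocyte lineage markers on the horizontal axis, both axes logarithmic, with 1 point a library colored by cell type. Tuft libraries hold 958 to 3003 Ptprc counts at lineage sums of 355 to 1786, and enterocyte libraries hold 83.1 to 168 at sums of 988 to 2617.

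Markers of leukocytes other than Ptprc were mostly low in these libraries. The summed level of 30 lineage markers, of T and intraepithelial lymphocytes, B and plasma cells, myeloid cells and mast cells, was 355 to 1786 in tuft cells, 727 and 5235 in EECs, 988 to 2617 in enterocytes, 277 to 315 in stem cells, 151 to 853 in AbsPro and 86.8 to 249 in SecPDG. Over the same genes the background estimate came to 112 to 666 in tuft libraries and 426 to 1228 in those of enterocytes. Both Ptprc and the lineage sum were thus higher in tuft cells than in stem cells and SecPDG. The lineage sum, unlike Ptprc, was highest in an EEC library and above every tuft library in 3 of the 5 enterocyte libraries. It leaves out 6 general leukocyte markers. Of these, SecPDG libraries held 690 to 2107 counts, tuft libraries 643 to 1037 and enterocyte libraries 341 to 434. Over all 36 markers, SecPDG libraries (876 to 2356) overlapped tuft libraries (1121 to 2587). Enterocyte libraries 1 and 3, at 3009 and 2919, then passed every tuft library, and library 2, at 2565, did not. EEC library 1 stayed highest, at 6448. The ratio of Ptprc to the lineage sum was 0.631 to 3.99 in tuft libraries and at most 0.427 in any other. Per 100 tuft marker counts, Ptprc ran from 2.76 to 3.96 in tuft libraries, from 6.53 to 14.8 in enterocytes and from 8.57 to 13.6 in AbsPro, was 3.31 and 10.3 in EECs, and ran from 0 to 8.21 in stem cells and from 0 to 2.99 in SecPDG.

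Of all 36 leukocyte markers, 35 had a higher mean in tuft cells than in stem cells, 31 than in AbsPro, 35 than in SecPDG, 5 than in enterocytes and 14 than in EECs. At an unadjusted p under 0.05 in edgeR, 23 were higher than in stem cells, 13 than in AbsPro, 22 than in SecPDG, 2 than in enterocytes and 1 than in EECs. The share of all genes at that p is not given. With 7 of the 36 at the mean of 50 that a call needs, 2 were called higher than in stem cells (Csf1r and Itgax, beside 7.83% of all genes). Against AbsPro 2 were called higher (Adgre1 and Lcp1, 5.23%), and against SecPDG 2 (Csf1r and Itgae, 3.01%). Against enterocytes 1 was called higher (Lcp1, 5.79%), and against EECs 0 (4.56%), where Cd68 was lower. DESeq2's test called 3 higher than in stem cells (Itgax, Csf1r and Lcp1) and 4 than in SecPDG (Itgae, Itgax, Csf1r and Adgre1). It called 2 higher than in AbsPro, 1 than in enterocytes and 0 than in EECs. Over the 36 markers the median log2 fold change was 3.39 against stem cells (3.11 with the 6 markers at 0 in stem cells set at their bound), 2.39 against AbsPro, 3.07 against SecPDG, -1.10 against enterocytes and -0.88 against EECs. The defining T cell genes Cd3d, Cd3e and Cd3g averaged 10.9, 23.7 and 40.9 normalized counts in tuft cells, 164, 141 and 192 in EECs and 44.7, 59.4 and 55.9 in enterocytes, and none of the 36 was at 0 in all tuft libraries. Their part in the Ptprc and Rac2 levels was not tested beyond these values.

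The 7 genes were then set beside the rest of their pathways. Of 7 type 2 ligands (Il4, Il5, Il9, Il13, Il25, Il33 and Tslp), none reached a mean of 50 and none was called by edgeR or DESeq2. At an unadjusted p under 0.05 in edgeR, 3 were higher in tuft cells than in stem cells, 3 than in AbsPro and 3 than in SecPDG, and 2 were lower than in enterocytes. Il13, the ligand that completes the circuit, averaged 10.5 ± 10.6 (n = 5) normalized counts in tuft cells, 46.1 in EECs and 31.4 in enterocytes. Il33, an alarmin of barrier cells, had 40.3 ± 34.3 in tuft cells and 87.4 in enterocytes. Background was not taken off these values, and its estimate was highest in EEC library 1 and enterocyte libraries 1 to 3. The median log2 fold change of the ligands in tuft cells was 2.62 against stem cells and -1.18 against enterocytes.

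Of 10 receptor subunits, 5 had a mean of at least 50, and the only ones called in any comparison of tuft cells were Il17rb, Il4ra and Il13ra1. Il1rap, the shared chain of Il1 family receptors, had 220 ± 112 (n = 5) in tuft cells and was not called. Il2rg, the chain that pairs with Il4ra on lymphocytes, had 15.4 ± 20.1 normalized counts in tuft cells, 108 in EECs and 44.9 in enterocytes. The chains Crlf2 and Il7r, through which Tslp acts, had 27.4 ± 16.7 and 18.7 ± 22.9 in tuft cells. Background was not taken off the values of these subunits either.

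The 14 signal transducers below these receptors all had a mean of at least 50 and were near level. None was called higher in tuft cells in any comparison by the edgeR test, where 3.01 to 7.83% of all genes were. In that test 1 was lower than in stem cells, Stat5b (-1.06 ± 0.31, adjusted p = 0.00799), beside 4.23% of all genes. It also called 1 lower than in enterocytes, Irs1 (-1.62 ± 0.41, adjusted p = 0.00361), beside 2.65%. For 14 genes these counts are near those shares. Stat6, the transcription factor below Il4ra, had 1222 ± 164 (n = 5) in tuft cells and 1137 to 1869 as the means of the other types. Jak1, the kinase bound to Il4ra, had 3127 ± 678 in tuft cells, and Traf3ip2, the adaptor of Il17 family receptors, 783 ± 187. At an unadjusted p under 0.05, 0 to 3 of the 14 were higher in each comparison, and DESeq2's test called 2 higher than in stem cells (Jak1 and Stat3) and 1 higher than in AbsPro (Jak1). In that test Stat5b was not called, Irs1 was again lower than in enterocytes, and Jak3 was lower than in EECs (-1.98, adjusted p = 0.00381). The median on the log2 scale lay between -0.21 (SecPDG) and 0.28 (EECs).

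Among the pathway lists, Ptprc with its signaling partners, 12 genes in all, gave the most calls. Of the 12, 10 had a mean of at least 50, and 8 were called higher in tuft cells than in stem cells (beside 7.83% of all genes), 6 than in AbsPro (5.23%), 6 than in SecPDG (3.01%), 7 than in enterocytes (5.79%) and 5 than in EECs (4.56%). Against EECs DESeq2's test called 2, Inpp5d and Plcg2. None was called lower by either test (2 against enterocytes and 1 against EECs at an unadjusted p under 0.05). Besides Ptprc those called against stem cells were the Src family kinases Lyn and Fyn, the phosphatases Ptpn6 and Inpp5d, the phospholipase Plcg2 and the adaptors Skap2 and Lcp2. Inpp5d, which removes a phosphate from PIP3, had 3045 ± 1138 normalized counts (SD, n = 5) in tuft cells and a log2 fold change against stem cells of 7.26 ± 0.52 (edgeR adjusted p = 2.87e-17), and Plcg2 had 5413 ± 1598 and 3.75 ± 0.37 (7.31e-12). Ptpn6 rose by 3.16 ± 0.35 (edgeR adjusted p = 3.73e-10), Fyn by 1.91 ± 0.43 (0.000656), Skap2 by 1.38 ± 0.33 (0.00141) and Lyn by 1.19 ± 0.30 (0.00262). Lcp2 had 54.4 ± 40.4 in tuft cells, 0 in stem cells and 140 in enterocytes, with a background estimate of 53.6% of its tuft mean. The kinase Lck, which Ptprc activates in T cells, had 100 ± 48.4 in tuft cells and 155 in enterocytes and was not called.

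The 20 genes of the Rac family, its activators and effectors were mixed. Against stem cells 4 were called higher in tuft cells and 2 lower (beside 7.83 and 4.23% of all genes), against AbsPro 3 and 1 (5.23 and 2.89%), against SecPDG 3 and 0 (3.01 and 0.347%), against enterocytes 4 and 0 (5.79 and 2.65%), and against EECs 2 and 1 (4.56 and 4.73%). DESeq2's test called 4 higher and 1 lower, Rac1, against SecPDG, 3 and 1, Cyba, against enterocytes, and 4 in place of 3 higher against AbsPro. Vav1, an exchange factor for Rac in blood cells, had 4812 ± 1947 (n = 5) normalized counts in tuft cells and 106 in stem cells (log2 fold change 5.50 ± 0.42, edgeR adjusted p = 5.45e-16). It was called higher than in each other type. Vav3, of the same family, was lower than in stem cells by -1.67 ± 0.28 (adjusted p = 5.24e-06) and higher than in enterocytes by 1.07 ± 0.29 (0.00715).

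Of the subunits of the NADPH oxidase that Rac2 activates in phagocytes, Cyba was lower than in stem cells by -1.70 ± 0.32 (edgeR adjusted p = 7.14e-05). Cybb, Ncf1 and Ncf4 had 23.5, 46.6 and 34.7 normalized counts in tuft cells. Among exchange factors of the Dock family, Dock8 rose against stem cells by 2.39 ± 0.34 (edgeR adjusted p = 3.35e-07) and Dock2 by 2.83 ± 0.78 (0.00507). Dock2 had 112 ± 78.8 in tuft cells, of which the background estimate was 46.0%, and 297 in enterocytes.

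**Figure D5:**
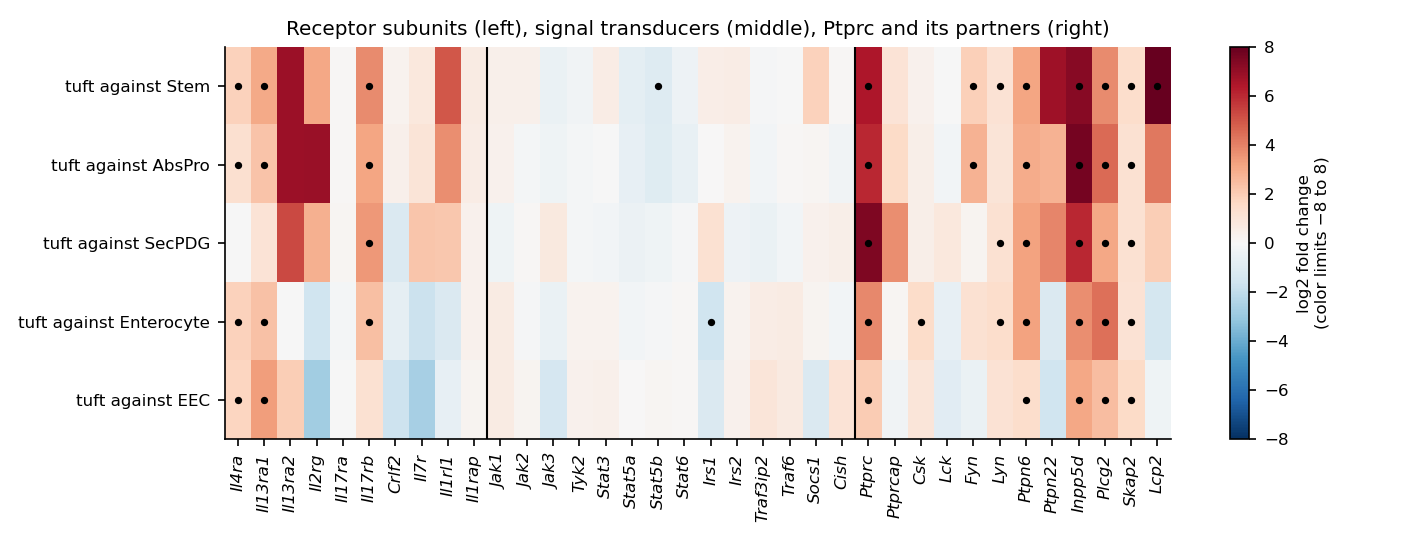
Log2 fold changes (color, from -8 in blue to 8 in red) of tuft cells against each of the 5 other cell types (rows) for the genes of 3 lists (columns): receptor subunits, signal transducers, and Ptprc with its partners, with a dot on each called difference. Against stem cells the 14 signal transducers lie around 0, with a median of 0.01, and Ptprc with its partners has a median of 2.54.

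The study reports both tuft-1 and tuft-2 cells among its tuft cells, with a citation of earlier work. Its subtype genes were listed here with earlier results of these data known, so they are not independent evidence of a direction. Of its 8 tuft-2 genes, which include Ptprc, Rac2, Tslp and Il4ra, 7 were called higher in tuft cells than in stem cells (beside 7.83% of all genes), 6 than in AbsPro (5.23%), 5 than in SecPDG (3.01%), 6 than in enterocytes (5.79%) and 4 than in EECs (4.56%). DESeq2's test called 2 higher than in EECs, Alox5 and Il4ra, and 1 lower than in enterocytes, Irf7 (-1.05, adjusted p = 5.14e-05). Ptgs1, which starts prostaglandin synthesis, rose against stem cells by 8.13 ± 0.61 (edgeR adjusted p = 2.87e-17), Alox5, of leukotriene synthesis, by 7.83 ± 0.51 (1.4e-18), the short-chain fatty acid receptor Ffar3 by 5.39 ± 0.75 (6.87e-08) and the interferon factor Irf7 by 1.84 ± 0.35 (5.59e-05). Of its 6 tuft-1 genes, 1 was called higher than in stem cells (beside 7.83% of all genes), Rgs2 by 5.78 ± 0.52 (edgeR adjusted p = 2.97e-13). Called higher were 2 than in AbsPro (5.23%), 0 than in SecPDG (3.01%), 3 than in enterocytes (5.79%) and 1 than in EECs (4.56%).

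For each of the 5 genes with a mean of at least 50, the 3 genes with the most similar profile were taken by Pearson r over the 22 libraries on log2(normalized count + 1), among genes of the same minimum mean. For Il17rb they were Limd2 (r = 0.92), Pea15a (0.91) and Vav1 (0.90), and for Rac2 Sptb (0.94), Srpx2 (0.93) and Map1a (0.93). For Ptprc they were Siglecf (0.95), Adam22 (0.94) and Nefl (0.93). For Il4ra they were Atp2a3, Qsox1 and Sidt1 (each 0.95), and for Il13ra1 Ptprj (0.97), Atp2a3 (0.93) and Man2a1 (0.91). Atp2a3, a calcium pump of the endoplasmic reticulum, had 47705 normalized counts in tuft cells and 38902 in SecPDG, and the next highest mean was 9753 in AbsPro. Siglecf, a sialic acid receptor, had 1580 in tuft cells and 169 in EECs.

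Among the 7 genes themselves, Ptprc and Rac2 had an r of 0.86, Il17rb with Ptprc 0.85 and Il17rb with Rac2 0.82. Il4ra had 0.16 with Ptprc and 0.08 with Rac2. These are descriptions over libraries that share cell type, depth and background.

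Processing of the transcripts could be read for Il4ra and Il13ra1. The share of the distal polyadenylation site of Il4ra, in its last exon at 7:125575524-125579474, was 0.23 to 0.31 in tuft cells (mean 0.276 ± 0.034, n = 5) and 0.31 to 0.38 in stem cells (0.353 ± 0.038, n = 3; exact permutation test, two-sided, p = 0.107). In AbsPro it was 0.213 ± 0.061 (n = 3), with an exact permutation p of 0.1 against stem cells, the smallest this design allows. In SecPDG it ran from 0.08 to 0.57, where the stem cell shares of that comparison were 0.43 to 0.48 (exact permutation p = 0.343). The proximal site was placed anew in each comparison, so shares of different comparisons are not the same measure. The share for Il13ra1, at X:36168814-36171261, was 0.524 ± 0.075 (n = 5) in tuft cells and 0.49 and 0.80 in the 2 stem libraries with a value (exact permutation p = 0.476). Its mean share was 0.31 in SecPDG, 0.457 in AbsPro and 0.45 in enterocytes, where the stem cell mean was 0.59 to 0.6 (exact permutation p from 0.133 to 0.6). None of these 7 comparisons passed 0.05, and their depth is unknown. For Il4ra in AbsPro and Il13ra1 in AbsPro and enterocytes the smallest possible p was 0.1, and for Il13ra1 in SecPDG it was 0.0667. Those comparisons could not pass 0.05 whatever the shares, so their p decides nothing.

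The skipped exon tables held 2 exons of Il13ra1 and none of the other genes. The 85-base exon at X:36155543-36155627 was included at a mean of 0.971 to 0.999 in tuft cells, SecPDG, AbsPro and enterocytes and 1.0 in stem cells (exact permutation p from 0.571 to 1). The 121-base exon at X:36132964-36133084 was included at 0.998 in tuft cells. At 39 or more reads a library, a difference from stem cells was not detectable.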

How the data were processed

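The RNA of 22 libraries was analysed. The deposited tables hold raw counts per gene, which the authors made with STAR 2.5.2a on mm10 and HTSeq 0.6.1p1 without regard to strand, with SAMtools 1.3, FastQC 0.11.7, bedtools 2.25.0, DESeq2 1.16.1 and R 3.4.1 also named in the submitters' processing notes. Entries naming no gene, 53.9 to 91.6% of each file, were left out. The authors also deposited skipped exon reads from rMATS and, from DaPars, the share of the distal site as a fraction per library. Libraries stand in those tables without names and were read as members of their cell type. MAJIQ tables, the EEC splicing table and the authors' own fold changes and p-values were not used.

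From the counts, genes were filtered with filterByExpr, scaled by TMM and tested with edgeR 4.0.16 (R 4.3.3) by a quasi-likelihood F test in 1 fit with cell type as the only term. Of 24421 genes 22781 were tested, and a call needed an average of 50 normalized counts across the libraries and an adjusted p (Benjamini-Hochberg) below 0.01. The standard error is the log2 fold change over the root of F. Shares and inclusion were compared by exact permutation. The test was checked on simulated data. Coordinates are 1-based on GRCm38, lengths are those of the longest coding transcript, and background is the counts per kilobase of 1171 genes of families not known in colon. DESeq2 1.42.0, other scalings, filters, thresholds and fits served as alternatives. The members and lists were chosen with earlier results of these data known, and 1 gene in each of 2 pathway lists is not reported here and was left out of their counts. Genes named are the 7, the 3 most similar to each, and called members of the lists of pathways, with markers of leukocytes, tuft cells, goblet cells and the sort as checks. The counting error of low values sets their precision. Python 3.11.15 made summaries and figures.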

Additional observations from a re-analysis of the deposited data

Results flagged for a closer look

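In 4 of the 21 groups of 4 or 5 libraries, 1 library stood apart from the rest by Dixon's test, which chance does in about 1 in 20 groups of continuous values. In SecPDG, replicate 2 held the only counts of Il25 (2.49 normalized counts) and of Rac2 (7.46), where the other 3 libraries were at 0. A lone count is always flagged in such a group, so that rate does not apply and the flag says nothing about the library. The same replicate held 13.7 normalized counts of Tslp where the next library had 0.842 and another 2 were at 0. The same library had the highest background estimate of its type, and its part was not tested. In enterocytes, replicate 3 had 288 normalized counts of Il4ra and the next lowest library 422.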

How the results depend on the processing

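The alternatives kept the side of the threshold and direction for most fold changes of single genes, 687 in all, with 12 now called, 6 no longer called and 8 reversed. All 8 reversals were Il4ra in tuft cells against SecPDG: 0.18 with DESeq2's size factors, 0.30 with library totals, 0.19 in DESeq2's test, 0.15 with background taken off, 0.027 with these 2 cell types alone, 0.063 with the 4 libraries of highest background left out (3 of enterocytes and 1 of EECs), 0.0085 without SecPDG replicate 2 and 0.0081 without Tuft replicate 2, in a range from -0.16 over all single libraries left out. Il13ra1 against SecPDG was called with DESeq2's size factors (1.34, adjusted p = 0.000171), library totals (1.46), DESeq2's test (1.34), the replicate block (1.07, 0.00804), background taken off (1.33), these 2 cell types alone (1.19) and the 4 libraries left out (1.22). Ptprc against EECs was not called with edgeR's earlier estimate of spread (1.97, adjusted p = 0.0782). With tuft cells and EECs alone, 1 of the 7 genes was called, Il13ra1. Background, the left-out libraries and the earlier estimate of spread were chosen after seeing the data. The causes were not tested.

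Of all genes, 2748 were called against stem cells (1468 with the earlier estimate of spread, 4486 at an adjusted p under 0.05), 1851 against AbsPro (901 and 3342, 3050 in DESeq2's test), 765 against SecPDG (205 and 1824, 1689 in DESeq2's test, 329 with background taken off, 1175 with the 4 libraries left out), 1922 against enterocytes (3209 with these 2 types alone, 3031 at 0.05) and 2117 against EECs (1208 with the earlier estimate, 1008 with these 2 types alone, 3692 at 0.05). Replicate numbers did not pair the libraries: 16 of 44 same-number pairs correlated over 0.1 and 6 of 22 libraries were closest to their own number. The replicate block gave 3110 calls against AbsPro and 1427 against SecPDG. DESeq2's size factors moved the share of higher calls from 68.6 to 49.0% against enterocytes and from 49.1 to 32.0% against EECs, and library totals to 45.1% against enterocytes, with shifts of the median gene from -0.43 to 0.26 over both scalings and all comparisons. DESeq2's test called 2 signal transducers and 2 tuft-1 genes higher than in stem cells, in place of 0 and 1. Against EECs it called 2 of Ptprc and its partners, 2 tuft-2 genes, 0 tuft-1 genes and 3 of 11 tuft markers higher, in place of 5, 4, 1 and 9.

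Leaving out 1 library gave 1690 to 3308 calls against stem cells, 985 to 2426 against AbsPro, 338 to 1371 against SecPDG, 1474 to 2905 against enterocytes and 1651 to 3612 against EECs. Of the 7 genes, 4 to 5 were then called against AbsPro, 2 to 3 against EECs, and the same number as before against the rest. By Spearman's rho, 1 of the 3 most similar genes was shared for each gene but Rac2, with 0. EECs have 2 libraries, and counts under about 30 reads limit Il25 and Tslp.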
